A study of Homo sapiens with 6 samples.

Results

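The zinc finger genes of cluster 19q13.4 are 44 KRAB-type genes of human chromosome 19, given as a list of symbols and matched by symbol to the Ensembl identifiers of the deposited count table. All 44 were found among the 62754 genes of the table. RNA-seq libraries were prepared from 3 control and 3 FAM60A-knockout samples of HEK293 cells, a transformed line of embryonic kidney origin. The sample labels give the line both as HEK293 and as HEK293T, a derivative that carries SV40 large T antigen. The knockout cells had been transfected with a CRISPR/Cas9 vector carrying guide RNAs against several regions of FAM60A and were kept as a puromycin-selected pool, so they were no single clone. The labels give the controls no further treatment, and control and knockout cells shared the same medium. The label texts do not say whether the libraries of a group came from separate cultures, so the p-values measure only the spread between these libraries. The members were compared between knockout and control cells because FAM60A is a subunit of the Sin3/HDAC repressor complex and the design asks how gene expression depends on it.

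KRAB zinc finger proteins form the largest family of human transcription factors. An array of C2H2 zinc fingers reads a DNA sequence, often within a transposable element, and the KRAB domain recruits the corepressor TRIM28, which brings in the H3K9 methyltransferase SETDB1, HP1 proteins and histone deacetylases. Most of these genes lie in tandem clusters on chromosome 19 that arose by duplication, and the clusters themselves can be packed in H3K9me3 chromatin. The individual DNA targets of most members are not described here, because the counts measure only the members' own RNA.

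On GRCh37, the build of the annotation used here, the members formed a segment of 38 genes from 52308069 to 54083523 of chromosome 19 (ZNF577 to ZNF331, 1.78 Mb) and a segment of 6 genes from 56887215 to 57137849 (ZNF582 to ZNF71, 0.25 Mb). Neighbouring members within a segment lay less than 1 Mb apart. Of the annotated genes, 20 members overlapped a gene on the opposite strand and 23 a gene on the same strand. Reads can be misassigned between near-identical paralogs, so all annotated transcripts of each member were cut into 100-base windows and compared with the transcripts of every other gene. In 19 members no window recurred elsewhere, the median share of recurring windows was 0.446%, and the highest was 9.76%, in ZNF836, with the overlapping gene ENSG00000267827.

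Promoter sequences were taken from RefSeq (GRCh38.p14), which held 36 of the 44 members, each as 250 bases before and 50 bases after the annotated start. They were rich in CpG: the median promoter of these members held 25 CpG dinucleotides, against 14 over all 27305 promoters, and none of them contained the TATA box TATAAA, which 12% of all promoters had. The letters CCGGAAG, the core recognised by ETS factors, were found on either strand in 21 of the 36 (58.3%), against 10.7% of all promoters. In 16 of these 21 the first match began 1 to 16 bases past the start of the gene, and in 10 of them exactly 4 bases past it. The windows of 30 bases below, read on the gene's strand with the match in capitals, show how closely the element and its surroundings recur in genes that behaved differently in the knockout. ZNF677, ZNF528, ZNF578, ZNF808 and ZNF320 fell, while ZNF845, ZNF766 and ZNF160 did not pass the test.

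ZNF677 (chr19:53254852-53254881, minus strand): ttcctgccgacCCGGAAGcggatctcgcgg
ZNF528 (chr19:52397801-52397830, plus strand): ttcgtgcaaacCCGGAAGcggaccgcgggg
ZNF578 (chr19:52453506-52453535, plus strand): ttcctggaaacCCGGAAGtgaatcatgggg
ZNF808 (chr19:52527661-52527690, plus strand): ttaacgcaaacCCGGAAGcggatcgggtgg
ZNF320 (chr19:52897670-52897699, minus strand): ttggcatagacCCGGAAGcggatggcaggg
ZNF845 (chr19:53333742-53333771, plus strand): ttcgcgcaaacCCGGAAGcggatcgcatgg
ZNF766 (chr19:52269580-52269609, plus strand): cgcctgcagacCCGGAAGtggatggcgtgg
ZNF160 (chr19:53103400-53103429, minus strand): tgcccacagacCCGGAAGtggatcgtgcgg

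The longer form ACCCGGAAG, chosen after these windows had been seen and overlapping the shorter one, stood in 16 of the 36 promoters (44.4%), against 1.17% of all promoters. A second element, AANATGGC, which is part of the site of the zinc finger factor YY1, was found in 7 members (19.4%), against 6.82% of all promoters. These were ZNF577, ZNF613, ZNF350, ZNF615, ZNF614 and ZNF432, the 6 members with a promoter entry at the centromeric end of the list, and ZNF582. With all libraries none of the 7 passed the test as lower in the knockout. None of the 11 members that did and had a promoter entry held this element. Without control replicate 3, ZNF613 and ZNF582 were lower (log2 fold change -0.39 and -0.29, edgeR adjusted p = 0.00579 and 0.0234). In that fit ZNF615 and ZNF614 were higher (0.51 and 0.29, edgeR adjusted p = 0.000319 and 0.00889). The pattern of this element was noticed after the values were known and is given without a test. The windows of 4 of the 7 are shown, with the match in capitals, read on the gene's strand.

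ZNF613 (chr19:51927332-51927361, plus strand): tgcaggattcaAAGATGGCtgcctccagta
ZNF350 (chr19:51986964-51986993, minus strand): tccaattttcaAACATGGCtgccgtcagga
ZNF615 (chr19:52008270-52008299, minus strand): tcagatactcaAAGATGGCggcccccatgg
ZNF432 (chr19:52048894-52048923, minus strand): tcacgtactcaAAGATGGCcgcccccagag

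The 250 bases before the start of ZNF677 and of ZNF614 show a promoter of a gene that fell and one of a gene that did not. Both are dense in CpG (28 and 17 in these 250 bases), and the capitals mark CCGGAAG in ZNF677 and, on the opposite strand, AANATGGC in ZNF614.

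ZNF677 (chr19:53254824-53255073, minus strand): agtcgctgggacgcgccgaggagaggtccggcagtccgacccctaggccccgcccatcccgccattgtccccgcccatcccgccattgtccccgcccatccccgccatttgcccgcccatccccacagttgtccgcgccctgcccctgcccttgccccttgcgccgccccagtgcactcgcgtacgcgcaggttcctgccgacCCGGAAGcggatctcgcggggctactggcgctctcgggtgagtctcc
ZNF614 (chr19:52028380-52028629, minus strand): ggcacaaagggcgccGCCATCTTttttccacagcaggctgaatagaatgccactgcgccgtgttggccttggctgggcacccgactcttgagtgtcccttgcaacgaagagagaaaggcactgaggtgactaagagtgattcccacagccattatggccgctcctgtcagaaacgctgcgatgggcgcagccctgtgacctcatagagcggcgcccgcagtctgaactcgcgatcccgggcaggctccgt

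Of the other motifs searched on either strand, CACGTG (E-box) was in 1 member promoter against 7.43% of all, GCGCATGC (NRF1) in 1 against 3.27%, ACTACA (ZNF143) in 2 against 8.95%, and CCACNAGG (CTCF) in 0 of 36 against 4.98%. CpG content did not separate the members by their response: the median was 25.5 in the 18 promoters of genes at least 2-fold lower in the knockout than in control replicates 1 and 2, and 24.5 in the other 18. The lower set includes ZNF347 and ZNF415, which had too few counts to be tested. ZNF415 held 5, 6 and 1 counts in control and 0, 1 and 1 in knockout libraries. DNA methylation and factor binding were not measured.

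The libraries held 88361827 to 93346824 counts. Control replicate 3 stood apart: of 21031 genes averaging 10 counts or more, 1711 and 1666 differed at least 4-fold between it and control replicates 1 and 2, which differed from each other in 26, and it differed from the knockout libraries in 748 to 812. Results on the members are therefore given with and without it. FAM60A (listed as SINHCAF, ENSG00000139146) had 11028, 10165 and 12792 counts in control libraries and 5684, 5793 and 5449 in knockout libraries, so control replicate 3 held FAM60A RNA at the level of the other controls. Its log2 fold change was -0.85 (SE, the standard error, 0.11, edgeR quasi-likelihood adjusted p = 0.00863, range over the alternatives 8.01e-10 to 0.0736). All 6 HEK293 markers examined (PAX2, VIM, KRT8, KRT18, CDH2 and NEFM) were detected in every library, with a summed level of 1730 and 1780 CPM in control replicates 1 and 2, 874 CPM in control replicate 3 and 764 to 884 CPM in knockout libraries. The 5 blood markers summed to at most 0.217 CPM, with HBB at 0 in every control. The 2 endothelial markers summed to 0.658 to 0.735 CPM in control and 0.0475 to 0.239 CPM in knockout libraries. The 3 fibroblast markers summed to 19.7 to 28.6 CPM in control and 23.3 to 23.7 CPM in knockout libraries, but unevenly: COL1A1 fell, while DCN rose from 0, 1 and 1 counts to 30, 33 and 33 and LUM from 244, 223 and 47 to 789, 642 and 727. DCN alone of these 3 kept its call whichever library was omitted, and the calls of COL1A1 and LUM held only without control replicate 3. The part of these shifts in the members' results was not tested.

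The summed RNA of the 44 members was lower in FAM60A-knockout than in control libraries, but this did not hold along the whole cluster. The 12 members from ZNF577 to ZNF480 had a median log2 fold change of 0.03, with single values from -2.02 to 0.5. CPM here are counts scaled to a common library size with TMM factors, and 1 CPM corresponded to 84.2 to 97.2 counts. The summed level of the 44 members was 272, 248 and 188 CPM in control replicates 1, 2 and 3 and 173, 159 and 171 CPM in knockout replicates 1, 2 and 3. Control replicate 3 lay between the other controls and the knockout libraries, and the groups did not overlap. In bulk RNA, fewer cells expressing a gene and less RNA per cell cannot be told apart. In the segment from ZNF582 to ZNF71 the sums were 31.3, 29.2 and 30.3 CPM in control libraries and 25.5, 23.7 and 24.9 CPM in knockout libraries. Within this segment ZNF667 alone went from a mean of 4.42 CPM in control to 0.281 CPM in knockout libraries. In the segment's sum control replicate 3 lay between the other controls, but its single genes differed in both directions. It was below them in ZNF667 (2.38 CPM) and above them in ZNF582 (6.57 CPM) and ZNF470 (4.72 CPM).

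**Figure D1:**
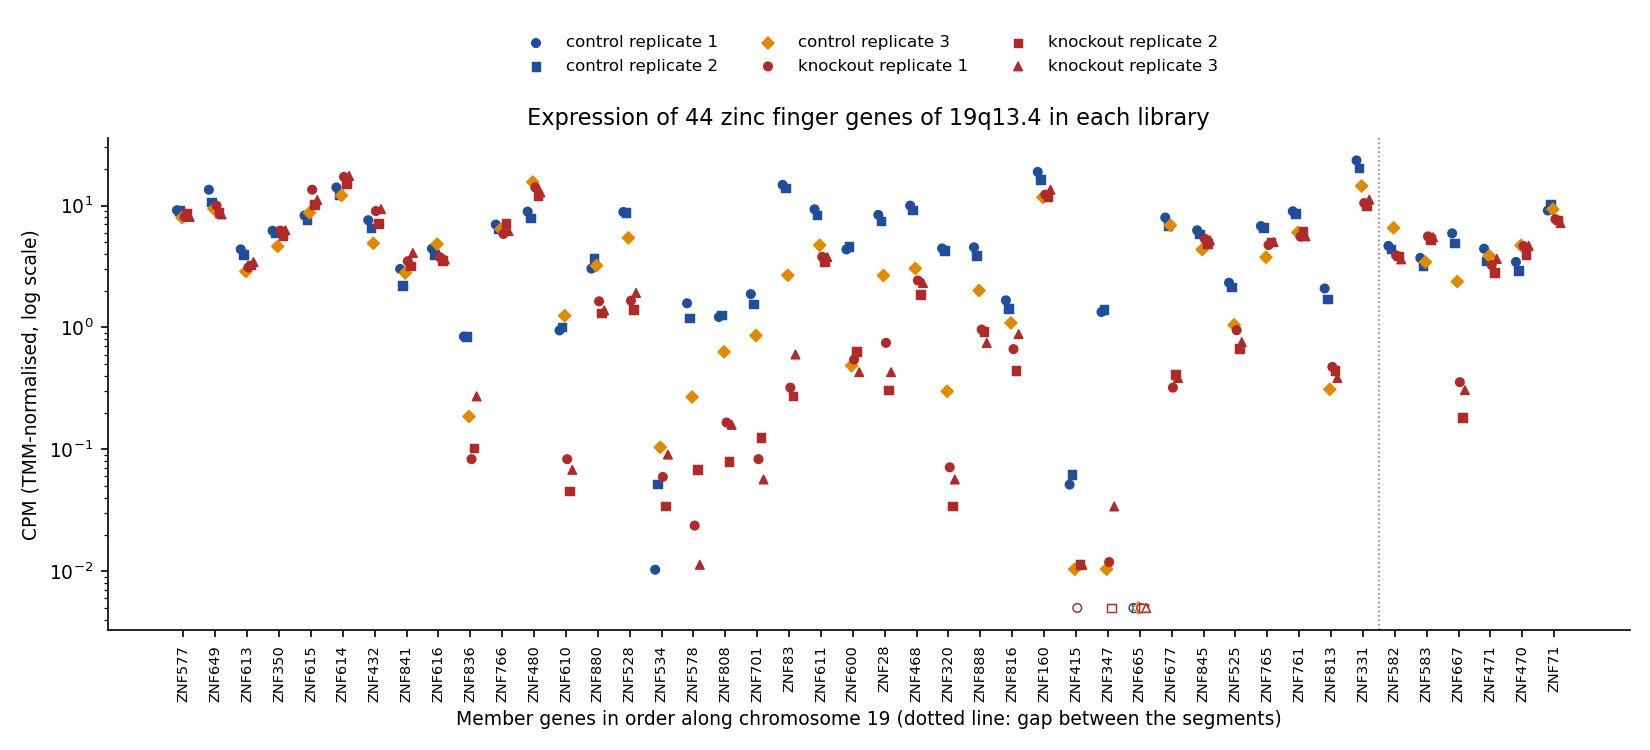
Level of each of the 44 members (CPM after TMM scaling, log axis) in the 6 libraries, with genes in their order along chromosome 19; blue marks control replicates 1 and 2, orange control replicate 3 and red the knockout libraries, and open symbols at the bottom stand for 0 counts. From ZNF610 onwards many members drop by more than 10-fold in the knockout, while the members to the left of ZNF610, except ZNF836, stay at a similar height in all libraries.

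Of the 44 members, 40 had enough counts to be tested. At an adjusted p of at most 0.05 (edgeR quasi-likelihood test, Benjamini-Hochberg over 20992 genes), 14 members fell and 1, ZNF583, rose, and the other 25 did not pass. The 14 were 35.0% of the tested members, against 8.67% of all genes tested, and the 1 was 2.5%, against 7.96%. The members were chosen with earlier results of these data known, so this contrast is a description only. When a change of 1 or more on the log2 scale was also required, 13 members were lower and 0 higher, against 3.72% and 3.34% of all genes. The edgeR count of 0 compares with 3 members higher at an unadjusted p under 0.05 without a fold threshold, and 0 members were higher at that fold in DESeq2 and limma-voom too. The median log2 fold change was -0.67 over the tested members and -0.01 over all genes, and in 32 of the 40 the fitted value was below 0. Every knockout library lay below every control for 20 members and above every control for 4, against 20.1% and 21.5% of all genes tested.

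The number of members that passed depended on every library. Without control replicate 3, 30 of 41 tested members were lower and 6 higher at an edgeR adjusted p of at most 0.05, but in that fit 33.2% of all genes were lower and 32.4% higher. The median log2 fold change of the members was then -1.09. Of the 25 members that did not pass with all libraries, 15 were lower and 5 higher in this fit. Without control replicate 1 or 2 the number of lower members was 9 and 8, and without knockout replicate 1, 2 or 3 it was 2, 5 and 2. The share of all genes called in either direction also fell in these fits, from 16.6% with all libraries to 4.89% and 3.71% without control replicate 1 or 2 and to 0.763%, 2.31% and 0.87% without knockout replicate 1, 2 or 3, so the lower counts are not particular to the members. EdgeR called 0 members higher in each of these 5 fits, with 1 to 3 higher at an unadjusted p under 0.05.

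**Figure D2:**
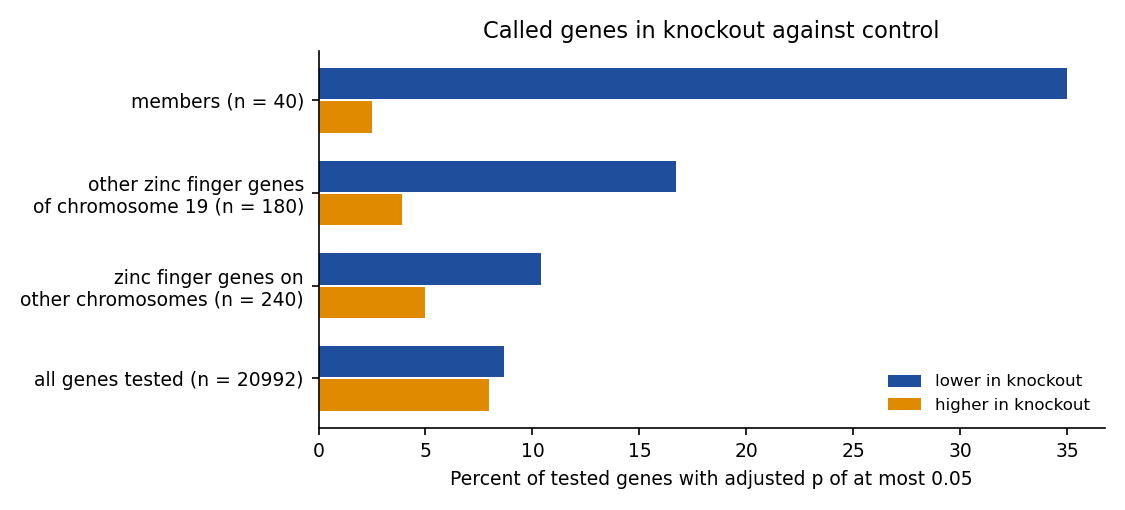
Percent of tested genes called at an edgeR adjusted p of at most 0.05 in knockout against control, lower (blue) and higher (orange), for the members and 3 wider sets with the number of genes tested in each. The members were called lower in 35.0% and higher in 2.5%, and all genes in 8.67% and 7.96%. The members were chosen with earlier results of these data known.

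The other zinc finger genes gave a scale for these counts. Of 180 tested protein-coding ZNF genes elsewhere on chromosome 19, 30 were lower (16.7%) and 7 higher (3.89%), with a median log2 fold change of -0.10. Of 240 on other chromosomes, 25 were lower (10.4%) and 12 higher (5.0%), with a median of -0.15. No test was run between these sets and the members.

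The change was unevenly placed along the cluster. From ZNF610 to ZNF816 lay a run of 15 consecutive members over 0.63 Mb, of which 14 could be tested. All 14 had fitted values below 0, between -1.02 and -5.77 on the log2 scale. Their median was -2.74, and 11 of them passed the test, where 8.67% of all genes tested were called lower. Without control replicate 3, ZNF611, ZNF600 and ZNF816 passed as lower too. The untested member, ZNF534, had few counts and no fall (1, 5 and 10 in control and 5, 3 and 8 in knockout libraries). The run was picked out after its values were seen and holds genes of both orientations, 7 on the plus and 8 on the minus strand. On its centromeric side, the 12 members from ZNF577 to ZNF480 had a median of 0.03 and 0 passed (edgeR), with 1 lower and 2 higher at an unadjusted p under 0.05. Without control replicate 3, these moved both ways. ZNF649, ZNF613 and ZNF836 were then lower (edgeR adjusted p = 0.0007, 0.00579 and 5.8e-07). ZNF615, ZNF614, ZNF841 and ZNF480 were higher (edgeR adjusted p = 0.000319, 0.00889, 0.014 and 1.52e-05). On its telomeric side, 8 of the 11 members from ZNF160 to ZNF331 could be tested, all 8 had fitted values below 0, and ZNF677 and ZNF331 passed. Without control replicate 3, ZNF160, ZNF347, ZNF845, ZNF525, ZNF765, ZNF761 and ZNF813 also passed as lower (edgeR adjusted p from 5.55e-12 to 0.0266). That fit called 33.2% of all genes lower, and in it the calls do not mark an end of the run on this side.

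**Figure D3:**
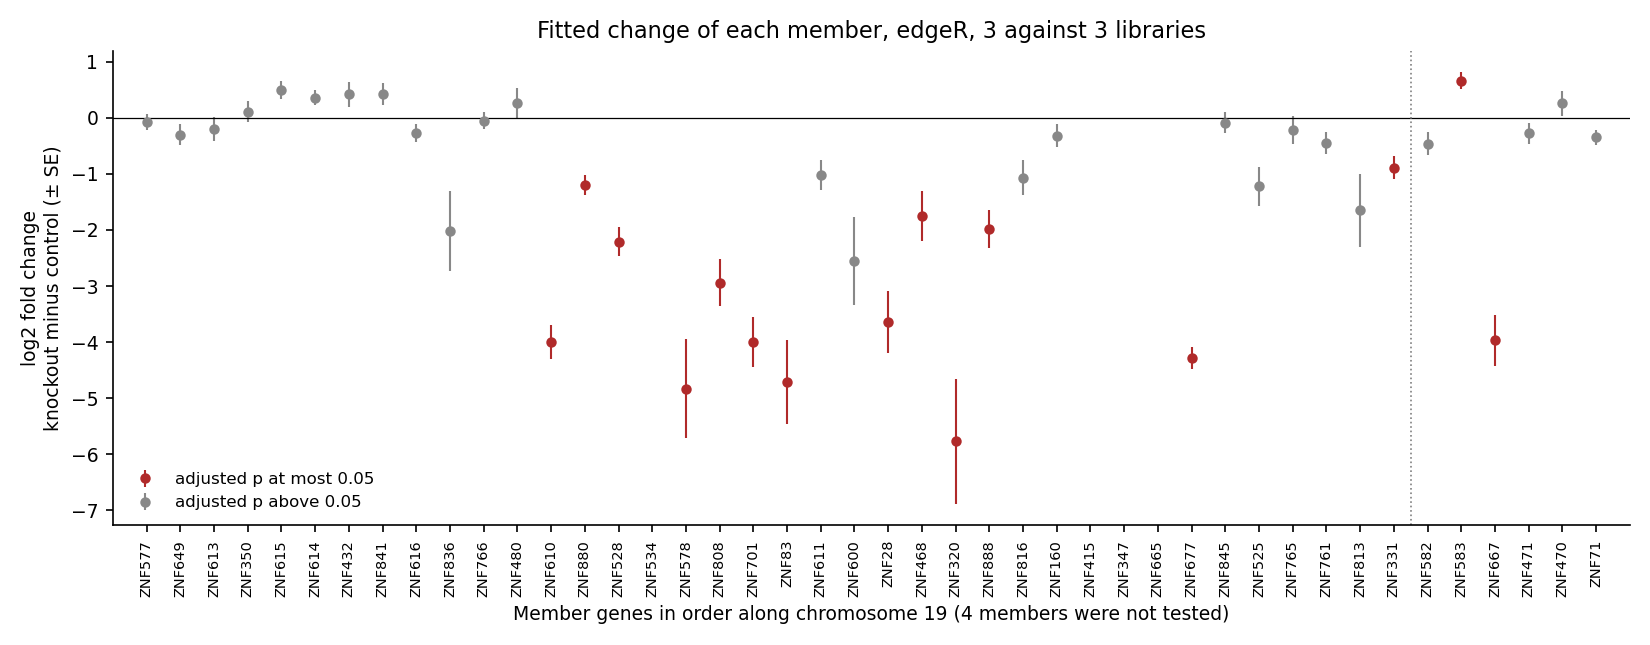
Fitted log2 fold change (knockout minus control, edgeR, bars are the SE, 3 libraries in each group) of the 40 tested members in their order along chromosome 19, red where the adjusted p was at most 0.05. The 11 red points between ZNF610 and ZNF888 lie between -1.20 and -5.77. ZNF677 and ZNF667 lie at -4.28 and -3.97, and the nearest tested members on either side have much smaller values. ZNF415, ZNF347 and ZNF665, which lie between ZNF160 and ZNF677, were not tested and have no point.

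The members with lower values in the knockout showed 3 patterns in the controls, the third of them mostly in genes that did not pass the test. The first was a loss found in knockout libraries alone. ZNF677 (ENSG00000197928, minus strand, 53738634 to 53758151) had 7.98, 6.83 and 6.89 CPM in control libraries and 0.321, 0.410 and 0.385 CPM in knockout libraries. The 3 controls differed little and the groups were far apart. Expression was 19.4-fold lower, with a log2 fold change of -4.28 (SE 0.20, edgeR adjusted p = 0.000654). ZNF610 (52839496 to 52871031) had 92, 97 and 121 counts in control libraries and 7, 4 and 6 in knockout libraries, or 1.07 ± 0.162 and 0.0655 ± 0.0189 CPM (SD, n = 3). Its highest control was control replicate 3. The log2 fold change was -4.0 (SE 0.30, edgeR adjusted p = 0.00260). ZNF677 and ZNF610 alone among the members kept their calls whichever of the 6 libraries was omitted. Over the alternatives that tested them, their adjusted p reached at most 0.0375 and 0.0437. The filter of at least 10 counts in every library left ZNF610 out of the test. ZNF880, which lies beside ZNF610, had 3.04, 3.70 and 3.22 CPM against 1.64, 1.31 and 1.38 CPM, a smaller difference without overlap, at -1.20 on the log2 scale (SE 0.18, edgeR adjusted p = 0.0123).

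The second pattern was a graded one, in which control replicate 3 lay between the other controls and the knockout. ZNF83 (53097313 to 53193812) had 14.8, 13.9 and 2.68 CPM in control replicates 1, 2 and 3 and 0.321, 0.274 and 0.600 CPM in knockout libraries. The controls were spread widely, but no knockout library reached the lowest of them. Control replicate 3 lay 5.35-fold below the mean of the other controls, and the knockout mean a further 6.73-fold below control replicate 3. The log2 fold change was -4.71 (SE 0.75, edgeR adjusted p = 0.0135). ZNF28 (53300661 to 53360853) had 8.39, 7.48 and 2.67 CPM against 0.748, 0.308 and 0.430 CPM, with a log2 fold change of -3.64 (SE 0.56, edgeR adjusted p = 0.0123). ZNF320 (53364104 to 53400946) had 433, 412 and 29 counts in control libraries and 6, 3 and 5 in knockout libraries. This was the largest fall among the tested members by fitted value, -5.77 on the log2 scale (SE 1.11, edgeR adjusted p = 0.0217).

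ZNF578 (52956806 to 53020135) held 154, 115 and 26 counts in control libraries and 2, 6 and 1 in knockout libraries, a log2 fold change of -4.83 (SE 0.88, edgeR adjusted p = 0.0191). Its fitted value ran from -4.39 to -5.75 when single libraries were omitted, with -5.75 without knockout replicate 2. ZNF808, which is known for its part in pancreas development, held 119, 122 and 61 counts against 14, 7 and 14 and fell by 2.94 on the log2 scale (SE 0.42, edgeR adjusted p = 0.0102). Its neighbour ZNF701, whose gene overlaps it on the same strand, held 183, 150 and 83 counts against 7, 11 and 5 and fell by 4.0 (SE 0.44, edgeR adjusted p = 0.00593). In these 3 genes too the lowest control was control replicate 3, and no knockout library reached it. Of the 100-base windows of ZNF808 and ZNF701, 6.32% and 3.28% recur in other genes, so a small part of their reads is uncertain.

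ZNF528 (52901102 to 52921665) had 8.86, 8.75 and 5.44 CPM against 1.66, 1.40 and 1.92 CPM, with a log2 fold change of -2.21 (SE 0.26, edgeR adjusted p = 0.00666). ZNF888 had 4.55, 3.88 and 2.01 CPM against 0.962, 0.923 and 0.747 CPM, with a log2 fold change of -1.99 (SE 0.34, edgeR adjusted p = 0.0159). ZNF331 (54022781 to 54083523) is an imprinted gene at the telomeric end of the segment. Its levels were 23.5, 20.4 and 14.5 CPM in control libraries and 10.5, 9.92 and 11.2 CPM in knockout libraries, with a log2 fold change of -0.89 (SE 0.20, edgeR adjusted p = 0.0309). ZNF667 (56950694 to 56989434) was the only member of the distal segment that passed the test as lower with all libraries. It had 5.92, 4.94 and 2.38 CPM against 0.356, 0.182 and 0.306 CPM, a log2 fold change of -3.97 (SE 0.45, edgeR adjusted p = 0.00631). Without control replicate 3, 4 of the 6 members of this segment were lower and 2 higher at an edgeR adjusted p of at most 0.05. That fit called 33.2% of all genes lower and 32.4% higher.

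The third pattern was one in which control replicate 3 was as low as the knockout, or nearly so. ZNF600 (53253195 to 53290060) had 4.37, 4.61 and 0.486 CPM in control libraries and 0.546, 0.638 and 0.430 CPM in knockout libraries. Control replicate 3 fell inside the knockout range, and with all libraries the gene did not pass the test (log2 fold change -2.55, SE 0.78, edgeR adjusted p = 0.0723). ZNF813 had 2.09, 1.71 and 0.311 CPM against 0.475, 0.445 and 0.385 CPM, with control replicate 3 below every knockout library (-1.65, SE 0.65, edgeR adjusted p = 0.127). ZNF836 had 0.843, 0.843 and 0.186 CPM against 0.0831, 0.103 and 0.272 CPM (-2.02, SE 0.71, edgeR adjusted p = 0.0986). Without control replicate 3 the edgeR adjusted p of ZNF600, ZNF813 and ZNF836 was 2.33e-13, 1.38e-09 and 5.80e-07, and over the alternatives that tested each gene it reached 0.229, 0.309 and 0.284.

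ZNF468, which overlaps ZNF28 on the same strand, was close to this pattern but passed the test. It had 10.0, 9.18 and 3.05 CPM against 2.43, 1.87 and 2.32 CPM, a log2 fold change of -1.75 (SE 0.45, edgeR adjusted p = 0.0452). ZNF347 (53627325 to 53662328) was the sharpest case, and the filter on low counts left it out of the test. It held 130 and 135 counts in control replicates 1 and 2, 1 count in control replicate 3, and 1, 0 and 3 counts in knockout libraries. No knockout library exceeded the floor of 3 counts in a library, which makes the mean of the controls at least 26.5-fold higher, a bound that rests on control replicates 1 and 2. Without control replicate 3 it was tested and its edgeR adjusted p was 5.55e-12, while over the 5 alternatives that tested it the value reached 0.212.

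Across the 20 tested members with a 2-fold or larger difference between the knockout mean and the mean of control replicates 1 and 2, all 20 were lower in the knockout. The share of this log2 difference that was also found in control replicate 3 ran from -0.09 in ZNF610 to 1.23 in ZNF813, with a median of 0.45. It was under 0.25 in 4 genes, ZNF610, ZNF677, ZNF880 and ZNF701, and over 0.75 in 4 others, ZNF468, ZNF836, ZNF600 and ZNF813. The remaining 12 lay between. Neighbours could differ widely: ZNF611, ZNF600 and ZNF28 follow each other on the chromosome with shares of 0.71, 1.05 and 0.39. These shares are a description of 1 library and carry no test. Neither the shares nor the count of 20 was worked out for other genes, so they are not shown to be particular to the members.

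**Figure D4:**
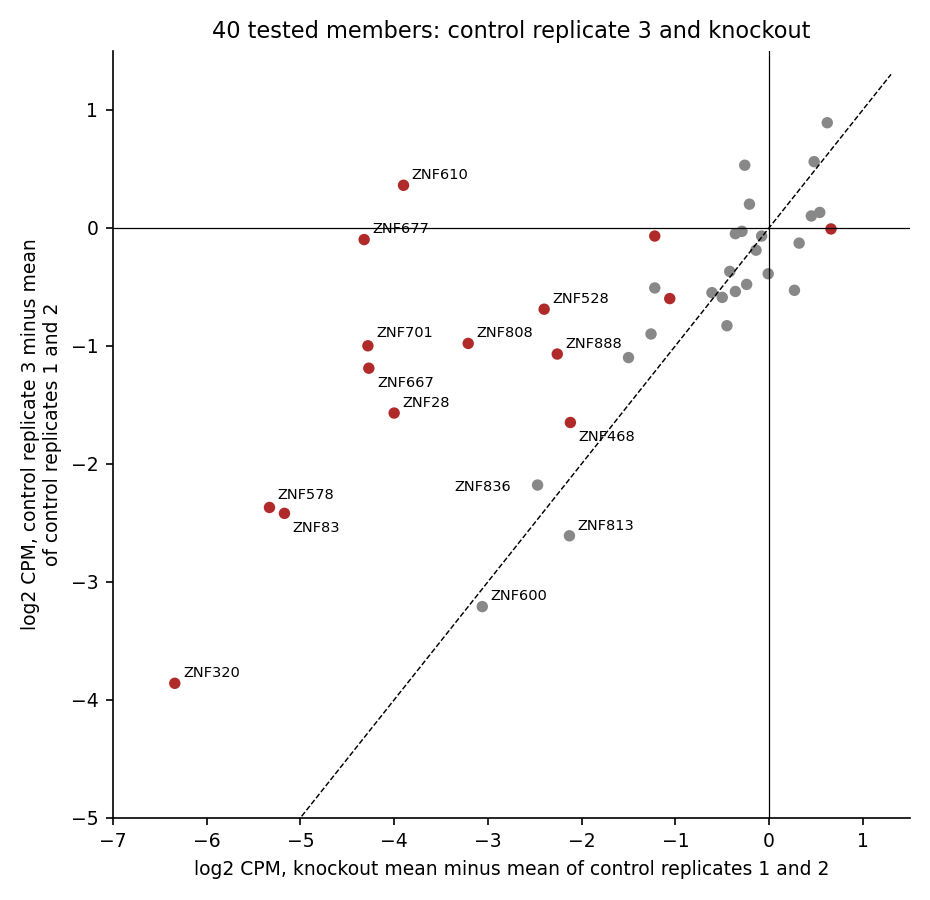
For the 40 tested members, the log2 difference of the knockout mean (horizontal) and of control replicate 3 (vertical) from the mean of control replicates 1 and 2, red where the edgeR adjusted p was at most 0.05, with the dashed line where both are equal. In control replicate 3, ZNF677 and ZNF880 lie close to 0 (-0.10 and -0.07) and ZNF610 above it (0.36), while ZNF600 and ZNF813 lie below the dashed line.

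Calls that passed with all 6 libraries depended on single libraries in 13 of 15 cases, and each of the 15 held without control replicate 3. The calls of ZNF528, ZNF701 and ZNF667 were lost without knockout replicate 1 (edgeR adjusted p = 0.0636, 0.0581 and 0.0542) and without knockout replicate 3 (0.0529, 0.0514 and 0.0577). Those of ZNF808, ZNF83 and ZNF28 were lost without knockout replicate 1, 2 or 3, with edgeR adjusted p of up to 0.0728, 0.0925 and 0.0851. ZNF880 also lost its call without control replicate 2 (0.0545) and reached 0.0884. ZNF578, ZNF320, ZNF888, ZNF468, ZNF331 and ZNF583 lost theirs without any one of the 5 libraries other than control replicate 3, with edgeR adjusted p of up to 0.112, 0.112, 0.0952, 0.161, 0.142 and 0.159. Each of these upper values was also the highest over the alternatives that tested the gene. The fitted log2 fold changes kept their sign throughout. ZNF701, ZNF808, ZNF578 and ZNF320 were not tested with at least 10 counts required in every library.

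ZNF583, in the distal segment, was the one member that passed the test as higher with all libraries. It had 3.72, 3.19 and 3.44 CPM in control libraries and 5.59, 5.29 and 5.50 CPM in knockout libraries, 1.58-fold more, with a log2 fold change of 0.66 (SE 0.15, edgeR adjusted p = 0.0347). Its groups did not overlap and control replicate 3 did not stand apart. ZNF582, which lies next to it, had 4.67, 4.42 and 6.57 CPM against 3.91, 3.85 and 3.62 CPM (log2 fold change -0.46, edgeR adjusted p = 0.165). ZNF667 and ZNF583 thus moved in opposite directions as immediate neighbours. ZNF471, ZNF470 and ZNF71 had log2 fold changes of -0.28, 0.26 and -0.35 and did not pass (edgeR adjusted p = 0.331, 0.448 and 0.126).

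Toward the centromeric end, ZNF615, ZNF614 and ZNF841 had higher values in every knockout library than in any control without passing the test. They were 3 of the 12 members from ZNF577 to ZNF480, and 21.5% of all genes tested lay above every control, so this is near the general share. ZNF615 had 8.29, 7.68 and 8.73 CPM against 13.5, 10.2 and 11.1 CPM (log2 fold change 0.50, SE 0.16, edgeR adjusted p = 0.0824). ZNF614 had 14.1, 12.4 and 12.1 CPM against 17.2, 15 and 17.5 CPM (0.36, SE 0.13, edgeR adjusted p = 0.105), and ZNF841 had 3.02, 2.22 and 2.80 CPM against 3.50, 3.19 and 4.08 CPM (0.42, edgeR adjusted p = 0.187). ZNF432, which lies between ZNF614 and ZNF841, had 7.59, 6.55 and 4.90 CPM against 9.02, 7.15 and 9.35 CPM, and its groups overlapped. ZNF350, also called ZBRK1 and known as a partner of BRCA1, had 6.22, 5.94 and 4.63 CPM against 6.23, 5.62 and 6.28 CPM, and its groups overlapped. ZNF480 was the one gene of this stretch in which control replicate 3 was high: 8.93, 7.93 and 15.6 CPM in control libraries and 14.1, 12 and 12.8 CPM in knockout libraries (0.26, edgeR adjusted p = 0.534). Without control replicate 3 its edgeR adjusted p was 1.52e-05, and it reached 0.884 over the alternatives.

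Among the members with the highest mean CPM were ZNF160, with 18.9, 16.4 and 11.7 CPM in control libraries and 12.3, 11.8 and 13.5 CPM in knockout libraries (fitted log2 change -0.32, edgeR adjusted p = 0.286), and ZNF649, with 13.5, 10.7 and 9.39 CPM against 10.0, 8.82 and 8.47 CPM (-0.30, edgeR adjusted p = 0.281). Their groups overlapped. Per kilobase of annotated exon, the levels in control cells were highest for ZNF649 (2.58 CPM per kb), ZNF614 (2.29), ZNF331 (2.24) and ZNF480 (2.23), which differ by less than the spread of the controls of ZNF480. In knockout cells the same scale gave 2.09 for ZNF649, 2.95 for ZNF614, 1.21 for ZNF331 and 2.68 for ZNF480. The exon lengths come from an annotation release that may differ from the one used for counting.

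Members near the threshold were ZNF611 (log2 fold change -1.02, edgeR adjusted p = 0.0508), ZNF525 (-1.22, 0.0591) and ZNF816 (-1.07, 0.0635). Each had every knockout library below every control, as did 20.1% of all genes tested. The remaining tested members were ZNF577, ZNF613, ZNF432, ZNF616, ZNF766, ZNF845, ZNF765 and ZNF761, with log2 fold changes between -0.45 and 0.42 and edgeR adjusted p between 0.160 and 0.831. Besides ZNF347, 3 members were left out by the filter. ZNF665 had 0 counts in every library, which allows up to 0.0309 to 0.0356 CPM by the floor of 3 counts. ZNF415 had 5, 6 and 1 counts against 0, 1 and 1, and ZNF534 had 1, 5 and 10 against 5, 3 and 8. Intervals and floors cover counting error only.

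Other annotated genes within the 2 segments were examined as well. Of 84, only 21 had enough counts to be tested, and 4 were lower (19%) and 2 higher (9.52%) at an edgeR adjusted p of at most 0.05. Of all genes tested, 8.67% were lower and 7.96% higher. Without control replicate 3, 12 of 23 tested were lower (52.2%) and 3 higher (13%), in a fit that called 33.2% and 32.4% of all genes. The 4 that passed as lower with all libraries were non-coding genes or a pseudogene that overlap or adjoin members that fell. ZNF667-AS1, which overlaps ZNF667 on the opposite strand, had 359, 356 and 204 counts in control libraries and 56, 48 and 47 in knockout libraries (fitted log2 change -2.44, edgeR adjusted p = 0.00658). ZNF528-AS1 had 115, 67 and 42 against 11, 10 and 13 (-2.55, edgeR adjusted p = 0.0152). The pseudogene ZNF137P, opposite ZNF83, had 160, 153 and 58 against 3, 6 and 10 (-4.11, edgeR adjusted p = 0.00994), and ENSG00000288253, on the strand of ZNF578, had 37, 48 and 29 against 6, 5 and 8 (-2.41, edgeR adjusted p = 0.00990). The methods describe stranded libraries but the sources used here do not say whether counting used the strand, so reads of overlapping pairs are uncertain. The calls of ZNF137P and ENSG00000288253 were lost without knockout replicate 1, 2 or 3, that of ZNF667-AS1 without knockout replicate 1 or 3, and that of ZNF528-AS1 without control replicate 2 or any knockout library, with adjusted p of up to 0.0719, 0.0782, 0.0614 and 0.0946.

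ZNF649-AS1 (17, 13 and 14 counts against 32, 31 and 58) and the pseudogene RPL37P23 rose, by 1.60 and 0.75 on the log2 scale (edgeR adjusted p = 0.0259 and 0.0385). Both calls held without control replicate 3 and were lost without any other library, with adjusted p of up to 0.0998 and 0.159. Of the protein-coding neighbours, PPP2R1A is a scaffold subunit of protein phosphatase 2A and overlaps ZNF836 on the opposite strand. It had 457, 511 and 332 CPM in control libraries and 347, 422 and 344 CPM in knockout libraries (fitted log2 change -0.22, edgeR adjusted p = 0.425). ZFP28, a zinc finger gene beside ZNF470, had a log2 fold change of 0.05 (edgeR adjusted p = 0.889). Without control replicate 3, PPP2R1A was lower (-0.41, edgeR adjusted p = 0.000565) and ZFP28 did not pass (0.22, edgeR adjusted p = 0.0625). ENSG00000269825, on the strand of ZNF83 and left out by the filter, had 78, 39 and 3 counts against 0, 1 and 3. Without control replicate 3 it was tested and was lower (-5.21, edgeR adjusted p = 2.79e-08). These neighbours were named after their values were seen.

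The genes through which KRAB zinc finger proteins repress were examined as a list. Of 28 genes of this list, all tested, 2 were lower and 0 higher (edgeR adjusted p of at most 0.05), or 7.14% lower against 8.67% of all genes, with a median log2 fold change of -0.07. At an unadjusted p under 0.05, 6 were lower and 0 higher, and limma-voom had 2 higher at that level. TRIM28, the corepressor that KRAB domains bind, had 709, 813 and 722 CPM in control libraries and 634, 785 and 663 CPM in knockout libraries (-0.11, edgeR adjusted p = 0.564). SETDB1, which methylates H3K9 at their targets, had 56.0, 52.4 and 51.1 CPM against 50.3, 47.5 and 51.2 CPM (-0.10, edgeR adjusted p = 0.463). For both, the groups overlapped. The genes that fell were EHMT2, an H3K9 dimethyltransferase, with 126, 124 and 84.9 CPM against 62.3, 68.2 and 66.2 CPM (-0.77, edgeR adjusted p = 0.0286), and DNMT1, the maintenance DNA methyltransferase, with 321, 292 and 281 CPM against 221, 231 and 240 CPM (-0.37, edgeR adjusted p = 0.0439).

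The calls of EHMT2 and DNMT1 held without control replicate 3 and were lost without any other library, and their adjusted p reached 0.139 and 0.193 over the alternatives. Without control replicate 3, 12 genes of the list were lower and 2 higher (42.9% and 7.14%), in a fit that called 33.2% and 32.4% of all genes. MPHOSPH8 and TASOR, subunits of the HUSH complex, had log2 fold changes of 0.38 and 0.16 (edgeR adjusted p = 0.184 and 0.292), and ATRX and DAXX had 0.25 and -0.80 (0.353 and 0.0676). HDAC1 and HDAC2, which also belong to the Sin3/HDAC complex, had -0.11 and -0.01 (edgeR adjusted p = 0.652 and 0.984). HDAC2 was low in control replicate 3 alone, at 738, 741 and 327 CPM in control libraries and 629, 590 and 574 CPM in knockout libraries.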

How the data were processed

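RNA-seq counts were analysed for 3 control and 3 FAM60A-knockout HEK293 libraries, grouped by the sample titles. The authors deposited raw whole-number counts for Ensembl genes. The study's methods give poly(A) selection, stranded library preparation, Trimmomatic and Salmon on hg38, the submitters' processing notes name STAR 2.7.10b, featureCounts 2.0.0 and hg38, and the sample protocol names hg19, so the counting step is uncertain. The annotation release is not given in the sources used here. All columns belonged to a sample.

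Counts were filtered with filterByExpr (minimum count 10), scaled by TMM and tested with the two-sided quasi-likelihood F-test of edgeR 4.0.16 in R 4.3.3, adjusted by Benjamini-Hochberg over 20992 genes. A gene was called where the adjusted p did not exceed 0.05, in a further count only if its change was 1 or more on the log2 scale. In simulated data for this comparison (20689 genes), 196 of 200 genes changed by 3 on the log2 scale were called, with 14 unchanged genes. The simulation gave every gene the same dispersion (0.0854) and set no library apart as control replicate 3 is. It therefore does not show how many changes are missed in the real libraries. Alternatives were DESeq2 1.42.0, limma-voom (limma 3.58.1, quantile normalization), plain library size in place of TMM, tests without the filter, at least 10 counts in every library, a replicate block, and leaving out each library. Total counts were 88361827 to 93346824 per library.

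The members and gene lists were chosen with earlier results of these data known. Members were described in full where they were among the 12 largest called changes, differed at least 4-fold between controls with at least 30 counts in the higher, were left out by the filter with at least 30 counts, or were among the 5 highest in mean CPM. From the silencing list, TRIM28, SETDB1 and called genes were named. The other genes named, and the motifs beyond the 7 first listed, were chosen after their values were seen. Coordinates of genes are those of GENCODE v44 lifted to GRCh37 and were used for positions only, and those of promoters are from RefSeq on GRCh38.p14. Of the genes with several promoter entries, the first was used.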

Additional observations from a re-analysis of the deposited data

How the results depend on the processing

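The median log2 fold change of the members stayed below 0 under each of the 12 alternatives, from -0.33 to -1.09, against -0.67. Of the members, 14 were lower with all libraries, with 21 in DESeq2, 17 with library size in place of TMM, 12 in limma-voom and 14 without a filter. The share of all genes called in either direction moved as well. It was 16.6%, with 26.6% in DESeq2, 18.6% with library size, 17.2% in limma-voom and 6.45% without a filter. With at least 10 counts in every library it was 17.4%, and without one library 0.763% to 65.6%. The count of lower members was 9 with at least 10 counts in every library, which leaves out members that fell to few counts (34 members tested). It was 2 to 30 without one library. At a change of 1 or more on the log2 scale, 13 were lower, with 8 under that filter and 2 to 21 without one library. The number of higher members was 1, with 2 in DESeq2, 0 with library size in place of TMM, 0 in limma-voom, 0 without a filter and 0 to 6 without one library. The edgeR or limma counts of 0 go with 1 to 3 members higher at an unadjusted p under 0.05. Of the silencing list, 2 genes were lower, with 5 in DESeq2, 4 with library size, 1 without a filter and 0 to 12 without one library (3 at an unadjusted p under 0.05 in each of the 5 edgeR fits with 0), and 0 to 2 were higher without one library. The log2 fold change of FAM60A lay between -0.92 and -0.78 without one library and was no longer called when knockout replicate 1, 2 or 3 was omitted (0.0719, 0.0571 and 0.0736 as adjusted p of edgeR). The cause of these shifts was not tested. Library size in place of TMM moved the median of all genes to -0.117.

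The labels number the replicates in both groups, but same-numbered libraries did not deviate together (correlations 0.01, 0.031 and -0.036 over the tested genes), so the numbers were not taken as pairs. With the replicate number as a block, which called 1.94% of all genes against 16.6% without it, 5 members were lower, 5 of them also by 1 or more on the log2 scale, 0 were higher (2 at an unadjusted p under 0.05), 0 genes of the silencing list were lower (4 at an unadjusted p under 0.05), and FAM60A was at -0.84 (edgeR adjusted p = 0.0551).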
